A study of Mus musculus with 16 samples.

Results

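The values described here are a genotype-by-oxygen interaction, that is, how far the change of each gene from 20% to 1% oxygen in libraries labelled Hif1a KO departed from the same change in Hif1a wild type libraries. The interaction was computed as a difference of log2 changes, labelled KO minus wild type, for each of the 14841 genes (of 21924 in the deposited table) with a CPM (counts per 1000000 reads on genes) of at least 1 in at least 2 of all 16 libraries. It rests on 8 of the 16 libraries, in 4 groups of 2. A positive difference means that the RNA level rose more, or fell less, in the libraries labelled KO.

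The cells were germline stem (GS) cells, which are spermatogonial stem cells from mouse testis kept in long-term culture on mouse embryonic fibroblast feeders with the growth factors GDNF and FGF2. All 8 libraries came from cells of a mixed 129 x C57BL/6 background, and genotype was either wild type or KO for Hif1a. Cells called KO were given AxCANCre, an adenovirus that carries Cre recombinase, on the same day as the low oxygen. Low oxygen was reached by gassing sealed plastic bags to 1% oxygen, and the other arm was kept at 20%. The deleted exons, the Cre control of the wild type cells and the share of cells in which deletion took place could not be read from the labels. The series text gives 2 days at low oxygen, while the names of the low-oxygen libraries of the line carry a mark for another number of days. Those names also carry an added letter and a separate run of sample numbers, so oxygen level and library set cannot be told apart within a genotype, although both genotypes were present in each set. Nothing in the labels says that the 2 libraries of a group came from separate cultures. The p-values thus measure a spread between libraries of a group that may be technical. That spread was estimated for each gene in 1 fit of all 16 libraries, and standard errors (SE, after ±) come from it.

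HIF-1 is the transcription factor that carries much of the cellular response to low oxygen. Its HIF1A subunit is made at all times, and in oxygen it is hydroxylated by the EGLN enzymes, bound by VHL and degraded; at low oxygen it persists, pairs with ARNT and binds hypoxia response elements near genes for glycolysis, mitochondrial turnover, blood vessel growth and collagen modification. EPAS1 (HIF-2α) shares the partner and part of the targets. Spermatogonial stem cells are known to rely strongly on glycolysis in culture.

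Recovered depth in the 8 libraries ran from 11942104 to 25659895 reads. A gene with 0 reads in a library could still have stood at up to 3 reads, or 0.117 to 0.251 CPM, counting error only. Wild type replicates at 1% oxygen differed most from each other, with a chi-square per gene of 7.60 against 1.79 to 3.68 in the other 3 groups, where 1 would be counting error alone. The pooled standard errors do not show this difference between groups.

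The oxygen response differed between the genotype labels for 8603 of 14841 genes (58.0%) at a Benjamini-Hochberg adjusted p of 0.05 in limma on log2(CPM + 1). The difference was positive for 2819 genes (19%) and negative for 5784 (39.0%). Counts of called members in the gene lists below are to be read against these shares. It was at least 1 on the log2 scale for 275 genes (1.85%) and at most -1 for 216 (1.46%). The median over all genes was not 0 but -0.17. With median-of-ratios scaling this median moved to 0.07 and the share of positive calls went from 32.8% to 61.7%, so the split between directions depends on the scaling and small differences are best read against these medians. In wild type 2737 genes rose (18.4%) and 5140 fell (34.6%) at 1% oxygen. In the libraries labelled KO 3747 rose (25.2%) and 8118 fell (54.7%).

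**Figure D1:**
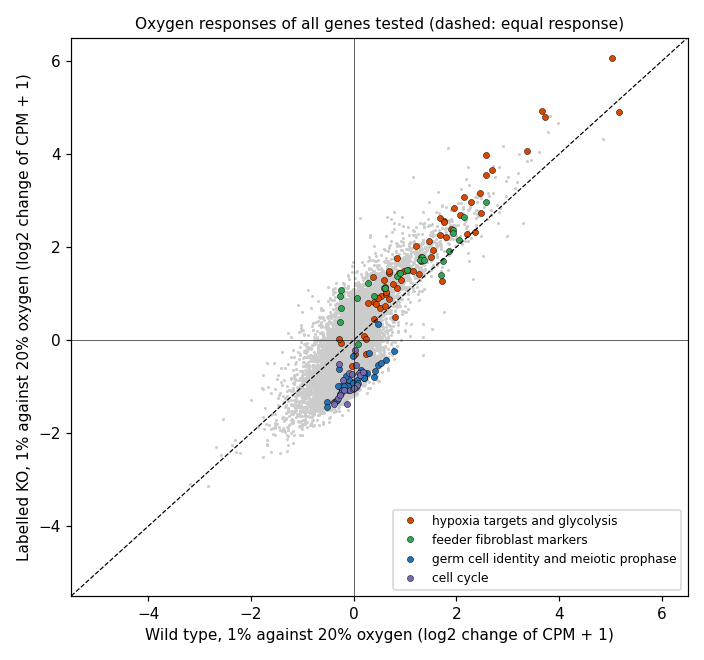
Log2 change of CPM + 1 from 20% to 1% oxygen in wild type (horizontal axis) and in the libraries labelled KO (vertical axis), 1 point per gene tested; coloured points are 4 sets of list members and the dashed line marks equal responses. Most points of the hypoxia and glycolysis set, which includes glucose and lactate transporters, lie above the line, as do most feeder fibroblast markers. Medians of the difference are 0.42 for hypoxia targets outside glycolysis, 0.46 for glycolysis enzymes and 0.48 for feeder markers. Germ cell, meiotic and cell cycle genes lie below the line.

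Hif1a itself (chr12:73901375-73947530, plus strand, GRCm38) was the first gene examined, because it is the labelled target. It stood at 116 and 118 CPM in wild type at 20% oxygen, 251 and 251 at 1%, 139 and 142 in the libraries labelled KO at 20%, and 618 and 593 at 1%. The libraries labelled KO were above the wild type libraries at each oxygen level, with no overlap of the groups, and the 2 labelled KO libraries at 1% were the highest of the 8. The rise at 1% was 1.09 ± 0.06 in wild type and 2.10 ± 0.06 in the labelled KO libraries (log2, SE), a difference of 1.01 ± 0.08 (adjusted p = 2.4e-08). A count over the whole gene cannot show whether an exon was removed, so the genotype is given as a label throughout.

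Of the 5 HIF subunit genes, 2 had a positive and 1 a negative difference (40.0% and 20.0%, against 19% and 39.0% of all genes). In edgeR, in DESeq2 and with median-of-ratios scaling 4 were positive and 1 negative. Arnt2, a second partner of the HIF alpha subunits, was at 25.4 and 23.9 CPM in wild type at 20% and 17.6 and 21.3 at 1%, and at 23.9 and 24.6 in the labelled KO libraries at 20% and 30.7 and 28.5 at 1%. It was thus lower at low oxygen in wild type and higher in the labelled KO libraries, with a difference of 0.60 ± 0.13 (adjusted p = 7.5e-04). In edgeR and DESeq2 the difference was still called, at 0.83 and 0.89, but the wild type responses of -0.23 and -0.24 were not. Hif3a, whose product can restrain the other HIF proteins, was at 27.7 and 29.7 CPM in wild type at 20%, 22.7 and 21.4 at 1%, 28.6 and 27.5 in the labelled KO libraries at 20% and 10.8 and 10.9 at 1%. It fell in both genotypes and further in the labelled KO libraries (difference -0.93 ± 0.12, adjusted p = 2.1e-06). The HIF-2α gene Epas1 (0.07 ± 0.08, adjusted p = 0.50) and the shared partner Arnt (0.04 ± 0.06, adjusted p = 0.60) were not called. Both became positive calls with median-of-ratios scaling, at 0.34 and 0.32.

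Among 9 genes of oxygen sensing and HIF degradation, 2 differences were positive and 5 negative (22.2% and 55.6%, against 19% and 39.0% of all genes), with a median of -0.26 that moved to 0.01 with median-of-ratios scaling. Only 1 negative call was left with that scaling, in edgeR or in DESeq2, 2 without labelled KO 1% replicate 1, and 3 without either wild type 20% replicate. Egln3, a HIF prolyl hydroxylase and itself a HIF target, was at 18.1 and 18.8 CPM in wild type at 20% oxygen, 77.5 and 85.8 at 1%, 15.8 and 15.0 in the labelled KO libraries at 20%, and 155 and 155 at 1%. The labelled KO libraries were the lower ones at 20% and the higher ones at 1%, and the difference was 1.16 ± 0.09 (adjusted p = 1.4e-08). Its relative Egln1, the main oxygen sensor, differed by 0.31 ± 0.09. In contrast, Hif1an, the asparagine hydroxylase that blocks HIF from its coactivators, was at 241 and 231 CPM in wild type at 20%, 217 and 212 at 1%, 221 and 202 in the labelled KO libraries at 20%, and 112 and 124 at 1% (difference -0.70 ± 0.07, adjusted p = 2.6e-07). Cul2, the scaffold of the VHL ubiquitin ligase, had a difference of -0.30, which was not called in edgeR, in DESeq2 or with median-of-ratios scaling.

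Glucose and lactate transporters were called 3 times positive and once negative among 4. Slc16a3, the lactate exporter MCT4, was at 6.80 and 7.31 CPM in wild type at 20% oxygen, 91.2 and 114 at 1%, 7.29 and 7.59 in the labelled KO libraries at 20%, and 256 and 251 at 1%. The 4 libraries at 20% were alike, and at 1% the labelled KO libraries lay far above the wild type ones, with a difference of 1.24 ± 0.12 (adjusted p = 1.1e-07). The glucose transporter Slc2a1 differed by 0.41 ± 0.07 and the lactate transporter Slc16a1 by 0.28. The glucose transporter Slc2a3 went the other way, from 63.0 and 63.5 CPM to 61.8 and 54.7 in wild type and from 52.9 and 48.9 to 27.1 and 24.9 in the labelled KO libraries. That fall in the labelled KO libraries made a difference of -0.82 ± 0.09 (adjusted p = 5.0e-07).

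Of 19 glycolysis enzymes, 16 rose and 2 fell in wild type, and 16 rose and 1 fell in the labelled KO libraries. The difference was positive for 16, negative for 1 and not called for 2. The list's median response was 0.88 in wild type and 1.45 in the labelled KO libraries, and its median difference 0.46 stood against -0.17 for all genes. Ldha, which makes lactate, was at 104 and 107 CPM in wild type at 20%, 369 and 458 at 1%, 134 and 158 in the labelled KO libraries at 20%, and 1062 and 1042 at 1%. At both oxygen levels the labelled KO libraries were the higher ones, and the gap widened at 1% (difference 0.89 ± 0.12, adjusted p = 4.0e-06). The enolase Eno2 differed by 0.97 ± 0.12, the triose phosphate isomerase Tpi1 by 0.81 ± 0.10 and the phosphoglycerate kinase Pgk1 by 0.69 ± 0.12. Pdk1, a kinase that inhibits pyruvate dehydrogenase, had a smaller difference of 0.34 ± 0.07. Aldoc, an aldolase typical of brain, was the negative member, at 55.3 and 53.1 CPM in wild type at 20%, 54.5 and 50.7 at 1%, 39.4 and 39.5 in the labelled KO libraries at 20%, and 26.0 and 26.6 at 1% (-0.52 ± 0.08, adjusted p = 1.7e-05); in DESeq2 no member had a negative call. Gpi1 (0.06) and Pfkfb4 (0.29) were the members without a call.

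**Figure D2:**
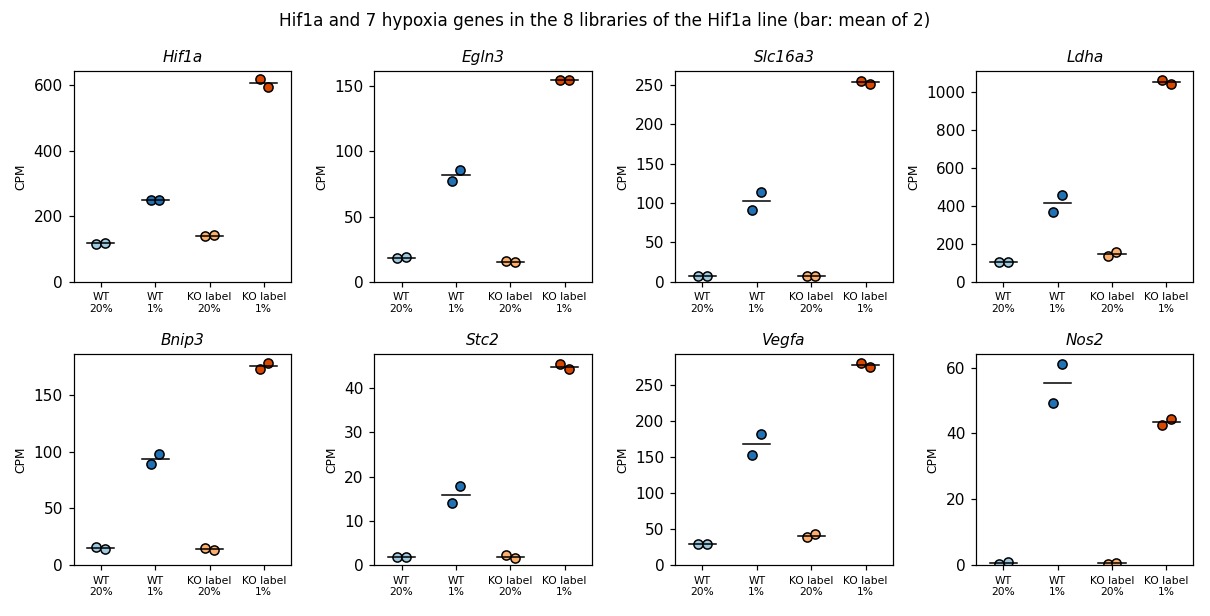
CPM of Hif1a and 7 hypoxia genes in each of the 8 libraries (points; bars are means of 2), by genotype label and oxygen level, each panel with its own linear axis from 0. For Hif1a, Egln3, Slc16a3, Ldha, Bnip3, Stc2 and Vegfa both labelled KO libraries at 1% oxygen lie above both wild type ones, and for Nos2 they lie below.

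Hypoxia targets that act at the mitochondrion had a median difference of 0.87, the highest among the hypoxia lists, with 5 of 6 positive. Bnip3, a receptor for the removal of mitochondria, was at 15.7 and 14.2 CPM in wild type at 20%, 89.6 and 98.3 at 1%, 14.7 and 13.4 in the labelled KO libraries at 20%, and 173 and 178 at 1%. The 20% libraries were alike and those at 1% did not overlap (difference 0.98 ± 0.09, adjusted p = 7.2e-08). Ndufa4l2, a HIF-induced inhibitor of respiration, was at 0.98 and 1.00 CPM in wild type at 20%, 57.7 and 71.9 at 1%, 1.93 and 1.00 in the labelled KO libraries at 20%, and 165 and 156 at 1%. It had the largest oxygen response of the list in both genotypes, 5.04 ± 0.13 and 6.06 ± 0.13, and differed by 1.02 ± 0.19 (adjusted p = 1.2e-04). Fam162a (0.81 ± 0.08) and Higd1a (0.76 ± 0.08), 2 hypoxia-induced mitochondrial proteins, and the cytochrome oxidase isoform Cox4i2 (0.93) were the other positive members, and the Bnip3 relative Bnip3l (-0.11) was not called, although 1 negative call appeared without labelled KO 20% replicate 2.

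Among 8 secreted factors, 5 differences were positive and 1 negative, with a median of 0.42. Stc2, the hormone stanniocalcin 2, was at 1.90 and 1.72 CPM in wild type at 20%, 13.99 and 17.8 at 1%, 2.18 and 1.63 in the labelled KO libraries at 20%, and 45.5 and 44.2 at 1%. Its difference of 1.41 ± 0.18 (adjusted p = 2.5e-06) was the largest among all hypoxia and glycolysis list members. The vasodilator peptide Adm (0.70 ± 0.13) and the lipase inhibitor Angptl4 (0.68 ± 0.12) also rose further in the labelled KO libraries. Vegfa, the vessel growth factor, was at 29.0 and 29.4 CPM in wild type at 20%, 153 and 183 at 1%, 38.4 and 43.6 in the labelled KO libraries at 20%, and 281 and 275 at 1%. The labelled KO libraries were higher at both oxygen levels, so that the responses, 2.47 and 2.73, were close and their difference of 0.26 missed the threshold (adjusted p = 0.084). That call changed with the setting: edgeR gave 0.46 and median-of-ratios scaling 0.54, both past the threshold, as did leaving out wild type 1% replicate 2 (0.39) or labelled KO 20% replicate 2 (0.35). Pdgfb, a mitogen for mesenchymal cells, was the negative member (-0.94 ± 0.08).

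Enzymes of collagen modification and disulfide formation had a positive difference for 6 of 7 genes and a median of 0.57. The collagen prolyl hydroxylase subunit P4ha2 was at 57.9 and 63.0 CPM in wild type at 20%, 245 and 297 at 1%, 59.1 and 62.4 in the labelled KO libraries at 20%, and 525 and 517 at 1%. Its 4 libraries at 20% overlapped and those at 1% did not (0.94 ± 0.10, adjusted p = 2.6e-07). The lysyl hydroxylases Plod1 (0.80 ± 0.09) and Plod2 (0.57 ± 0.06) and the second subunit P4ha1 (0.61) went the same way. Lox, which cross-links collagen, rose about equally on the log2 scale, by 2.20 in wild type and 2.28 in the labelled KO libraries (difference 0.08, adjusted p = 0.64).

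Of 20 further hypoxia targets, 9 differences were positive, 3 negative and 8 not called, with a median of 0.27. Car9, a carbonic anhydrase widely used as a hypoxia marker, was at 0.368 and 0.382 CPM in wild type at 20%, 14.6 and 20.0 at 1%, 0 and 0.263 in the labelled KO libraries at 20%, and 30.1 and 30.4 at 1%. It was near the counting floor in all libraries at 20%, and at 1% the labelled KO libraries were the higher ones (difference 1.08 ± 0.22, adjusted p = 3.5e-04). Bhlhe40, a repressor of transcription, differed by 0.97 ± 0.12, the glycogen synthase Gys1 by 0.93 ± 0.11 and the stress gene Ndrg1 by 0.78 ± 0.08. Nos2, inducible nitric oxide synthase, was at 0.306 and 0.860 CPM in wild type at 20%, 49.4 and 61.1 at 1%, 0.335 and 0.632 in the labelled KO libraries at 20%, and 42.5 and 44.5 at 1%. It rose by 5.17 in wild type and 4.91 in the labelled KO libraries, and the difference of -0.25 was not called (adjusted p = 0.30; -0.51 and called without wild type 20% replicate 2).

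The 3 negative members of that list were Kdm3a, Ankrd37 and Mxi1. Kdm3a, a histone H3 lysine demethylase, was at 233 and 237 CPM in wild type at 20%, 291 and 267 at 1%, 206 and 186 in the labelled KO libraries at 20%, and 159 and 157 at 1%. It rose by 0.25 in wild type and fell by 0.31 on the log2 scale in the labelled KO libraries (difference -0.55 ± 0.07, adjusted p = 4.8e-06); with median-of-ratios scaling the labelled KO response was 0.06 and the difference was -0.28. Ankrd37, an ankyrin repeat protein, rose from 3.61 and 3.92 CPM to 13.9 and 15.6 in wild type and from 3.35 and 2.58 to 8.46 and 8.61 in the labelled KO libraries (-0.45 ± 0.16, adjusted p = 0.020). Mxi1, an antagonist of MYC, rose in both genotypes and less in the labelled KO libraries (-0.31 ± 0.08). With median-of-ratios scaling Kdm3a was the 1 negative call left.

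Over all 41 hypoxia targets outside glycolysis, 25 differences were positive and 4 negative, and the median response was 1.27 in wild type and 1.77 in the labelled KO libraries. Of these 41 genes, 38 rose in wild type and 36 in the labelled KO libraries, so most were higher at 1% oxygen under both labels. Oxygen level and library set cannot be told apart in this rise, and the part of the feeder cells in it was not tested. The summed CPM of the same 41 genes was 2839 and 2896 in wild type at 20%, 7298 and 8172 at 1%, 3561 and 3824 in the labelled KO libraries at 20%, and 13347 and 13052 at 1%. The groups did not overlap at either oxygen level.

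Promoter stretches of 30 bases are shown for the hypoxia and glycolysis members at either end of the range, the 3 lowest and 3 highest differences with an entry in RefSeq's promoter table (GRCm38.p6), so that the core of the hypoxia response element can be seen in both. Each is written 5′ to 3′ on the gene's strand, and capitals mark ACGTG or GCGTG read on either strand, so that CACGT and CACGC are matches on the opposite strand. The stretches are Kdm3a, chr6:71632927-71632956, minus strand, in an annotated exon; Aldoc, chr11:78323011-78323040, plus strand, in an annotated exon; Ankrd37, chr8:45999985-46000014, minus strand, in an intron; Stc2, chr11:31370275-31370304, minus strand, before the gene; Slc16a3, chr11:120949028-120949057, plus strand, in an annotated exon; and Car9, chr4:43506996-43507025, plus strand, in an annotated exon.
Kdm3a: ccgggaggctgtGCGTGtcttgtgagagag
Aldoc: ccacctctgaggGCGTGgccttaccctaga
Ankrd37: ttcactgcgCACGCGTGctgcggccgcctg
Stc2: cacCACGCaaacGCGTGgccgccgccaggt
Slc16a3: caggcagcggtgACGTGcgcgggggACGTG
Car9: ctatttccgatgCACGTacagcccgtccac
Each stretch was chosen as the one with the most matches within 250 bases before the start. A match was present at both ends of the range, which that choice favours, so it does not set the ends apart. Of the 64 hypoxia and glycolysis genes on the lists, 48 had a table entry, and 34 of them (70.8%) held the motif between 250 bases before and 50 after the start. The same window held it for 61.6% of 11589 tested genes and for 43.8% of all 27025 symbols. A match of this length is a description of the sequence and not a measured binding site.

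Feeder fibroblast markers and germ cell markers moved with the interaction in opposite directions, and they stand beside every group described above and below. Bulk RNA does not separate fewer cells of a type from less RNA per cell. The 24 feeder markers summed to 12392 and 13388 CPM in wild type at 20% oxygen, 30525 and 38683 at 1%, 18029 and 21288 in the labelled KO libraries at 20%, and 69197 and 67611 at 1%. The labelled KO libraries held the higher sums at both oxygen levels, and the log2 ratio of the sums from 20% to 1% was 1.42 in wild type and 1.80 in the labelled KO libraries. By contrast the summed CPM of 16 germ cell identity genes came to 4225 and 4152 in wild type at 20%, 4346 and 4069 at 1%, 3661 and 3462 in the labelled KO libraries at 20%, and 1840 and 1955 at 1%. The wild type sums overlapped between oxygen levels (log2 ratio 0.01), whereas the labelled KO sums at 1% lay below all others (log2 ratio -0.91). The part of this mixture in the differences of single genes was not tested.

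**Figure D3:**
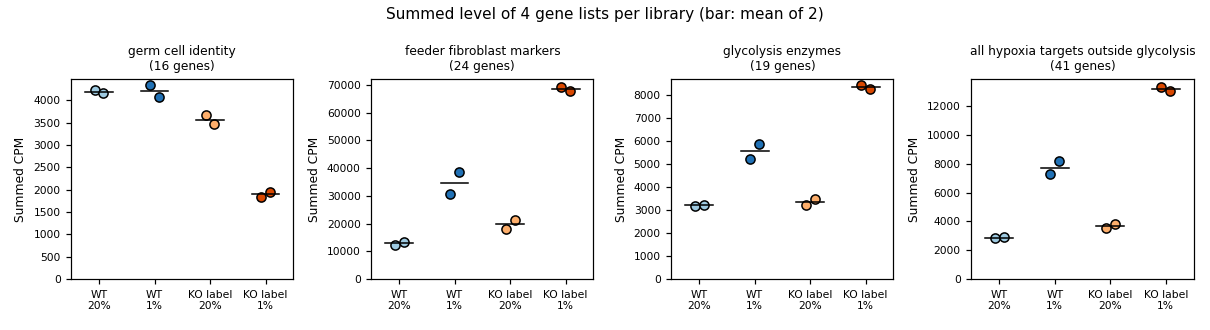
Summed CPM of germ cell identity genes, feeder fibroblast markers, glycolysis enzymes and hypoxia targets outside glycolysis in each of the 8 libraries (points; bars are means of 2), each panel with its own linear axis from 0. The labelled KO libraries at 1% oxygen hold the lowest germ cell sums, 1840 and 1955, and the highest sums of the other 3 lists.

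Among the 24 feeder markers, 18 differences were positive and none negative, with a median of 0.48. Leaving out wild type 1% replicate 1 reduced the positive calls to 11 and the median to 0.31, and without that library or labelled KO 20% replicate 1 there was 1 negative call. S100a4, a calcium-binding protein of fibroblasts, was at 19.8 and 21.1 CPM in wild type at 20%, 15.7 and 18.7 at 1%, 26.0 and 34.1 in the labelled KO libraries at 20%, and 63.9 and 63.8 at 1% (1.31 ± 0.19, adjusted p = 9.8e-06). Acta2, smooth muscle actin, was at 141 and 141 CPM in wild type at 20%, 103 and 134 at 1%, 233 and 270 in the labelled KO libraries at 20%, and 485 and 488 at 1% (1.22 ± 0.15, adjusted p = 2.1e-06). For both genes the wild type libraries at 1% were at or below those at 20%, while the labelled KO libraries at 1% were the highest of the 8. The surface protein Thy1 differed by 0.95 ± 0.13 and the actin-binding protein Tagln by 0.94. The major fibroblast collagens behaved otherwise: Col1a1 was at 1364 and 1512 CPM in wild type at 20%, 4727 and 6438 at 1%, 1691 and 2188 in the labelled KO libraries at 20%, and 10072 and 9646 at 1%. It rose steeply under both labels, and its difference of 0.42 ± 0.18 only just passed the threshold (adjusted p = 0.0497). Without wild type 1% replicate 1 it was 0.19 and not called. Col3a1 (0.39) likewise lost its call without that library (0.22) and without labelled KO 20% replicate 1 (0.19).

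Germ cell identity genes had a negative difference for 15 of 16 members and a positive one for none, with a median of -0.89 (-0.62 with median-of-ratios scaling). Ddx4, the germ cell RNA helicase VASA, was at 514 and 479 CPM in wild type at 20%, 606 and 537 at 1%, 443 and 406 in the labelled KO libraries at 20%, and 245 and 269 at 1%. It rose by 0.20 in wild type and fell by 0.72 on the log2 scale in the labelled KO libraries (difference -0.92 ± 0.09, adjusted p = 1.0e-07). Piwil2 (-0.98 ± 0.07), Mov10l1 (-0.97 ± 0.07) and Tdrd1 (-0.93 ± 0.07), which act in transposon silencing by piRNAs, also had negative differences. In wild type Mov10l1 rose by 0.25, while Piwil2 (-0.11) and Tdrd1 (-0.09) were not called. Differences of the 16 members ran from -1.02 to -0.34, and Dppa3 (-0.34) was the member without a call.

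Self-renewal genes were GDNF receptor genes, transcription factors and other genes linked to undifferentiated spermatogonial stem cells, with Nanos2 also on the germ cell identity list. They had a negative difference for 19 of 26 members, with a median of -0.61. With median-of-ratios scaling the median was -0.36 and in DESeq2 -0.38, with 15 and 14 negative calls. Their median response was -0.50 in wild type and -1.14 in the labelled KO libraries. Zbtb16, the stem cell factor PLZF, was at 385 and 393 CPM in wild type at 20%, 279 and 282 at 1%, 345 and 345 in the labelled KO libraries at 20%, and 129 and 140 at 1%. It fell under both labels and further in the labelled KO libraries (-0.88 ± 0.07, adjusted p = 1.8e-08). The GDNF receptor genes Gfra1 (-0.60 ± 0.09) and Ret (-0.63 ± 0.06) showed smaller differences and already fell in wild type, by 0.81 and 0.82 on the log2 scale. Taf4b (-1.0 ± 0.09) and Sall4 (-0.84 ± 0.07), 2 transcriptional regulators of germ cells, were also negative. Ccnd2, a G1 cyclin, was the positive member, at 920 and 931 CPM in wild type at 20%, 542 and 538 at 1%, 1095 and 1060 in the labelled KO libraries at 20%, and 842 and 838 at 1% (0.42 ± 0.07).

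Of 16 spermatogonial differentiation genes, 11 differences were negative and 2 positive, with a median of -0.88. Sohlh1, Sohlh2 and Nanos3 are on this list and on the germ cell identity list. Kit, the stem cell factor receptor of differentiating spermatogonia, was at 96.9 and 89.7 CPM in wild type at 20%, 68.0 and 65.0 at 1%, 84.6 and 78.8 in the labelled KO libraries at 20%, and 24.8 and 25.1 at 1%. It fell under both labels and further in the labelled KO libraries (-1.19 ± 0.08, adjusted p = 5.0e-09). Dmrt1 (-0.90 ± 0.06), a transcription factor of male germ cells, and the DNA methyltransferase Dnmt3b (-0.87) went the same way. The positive members were Ccnd1 (1.13 ± 0.14), a G1 cyclin that fell by 1.39 in wild type and by 0.26 in the labelled KO libraries on the log2 scale, and Cyp26b1 (0.78 ± 0.18), an enzyme that degrades retinoic acid. Neither Ccnd1 nor Cyp26b1 is restricted to germ cells, and neither is the negative member Dnmt3b. Which cells held these transcripts was not tested.

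**Figure D4:**
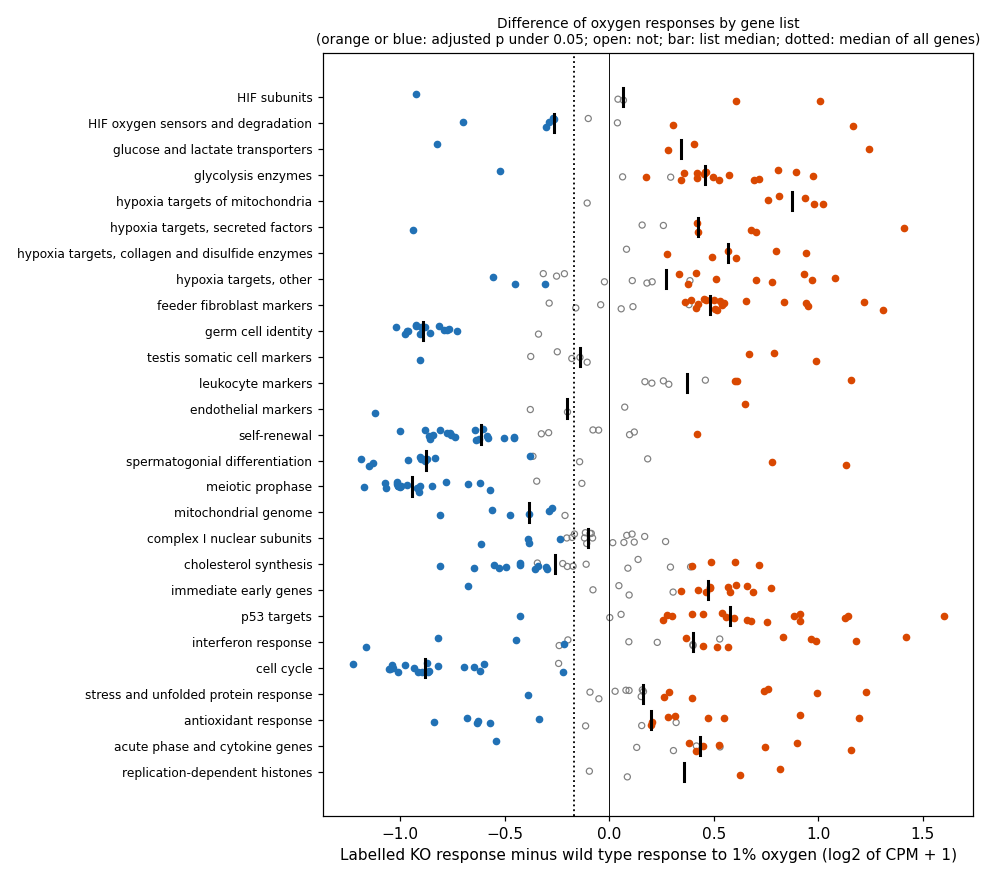
Difference of oxygen responses (labelled KO minus wild type, log2 of CPM + 1) of every tested member of 27 gene lists; filled points passed an adjusted p of 0.05, open points did not, short bars are list medians and the dotted line is the median of all genes, -0.17. Medians of these CPM values lie below -0.6 for germ cell identity, self-renewal (-0.36 with median-of-ratios scaling), spermatogonial differentiation, meiotic prophase and cell cycle genes.

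Meiotic prophase genes, for chromosome pairing and recombination, had 18 negative differences and no positive one among 20, with a median of -0.94. Their median response was 0.20 in wild type and -0.74 in the labelled KO libraries. Stag3, a meiotic cohesin subunit, was at 356 and 353 CPM in wild type at 20%, 523 and 499 at 1%, 303 and 274 in the labelled KO libraries at 20%, and 200 and 210 at 1%. Wild type was higher at 1% than at 20% and the labelled KO libraries were lower, with no overlap of the groups (-1.02 ± 0.07, adjusted p = 5.7e-09). The same held for the cohesin subunit Smc1b (-1.17 ± 0.09) and, on the CPM scale, the synaptonemal complex gene Sycp2 (-1.07 ± 0.10). The labelled KO response of Sycp2 was -0.07 with median-of-ratios scaling, -0.11 in edgeR and -0.07 in DESeq2, and in none of the 3 was the gene called opposite. On the CPM scale, 9 of the 20 rose in wild type and fell in the labelled KO libraries, against 332 of 14841 genes (2.24%).

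Cell cycle genes had 19 negative differences among 20, with a median of -0.88, a median response of -0.05 in wild type and one of -0.99 in the labelled KO libraries. Mki67, a marker of cycling cells, was at 412 and 405 CPM in wild type at 20%, 429 and 413 at 1%, 370 and 326 in the labelled KO libraries at 20%, and 168 and 176 at 1%. The wild type libraries stayed within 405 to 429, and the labelled KO libraries at 1% were the lowest (-1.05 ± 0.09, adjusted p = 2.9e-08). The replication helicase genes Mcm6 (-1.04), Mcm5 (-0.98 ± 0.06) and Mcm3 (-0.92 ± 0.06) and the topoisomerase Top2a (-1.04 ± 0.08) went the same way. In the same libraries the germ cell identity sum had a difference of -0.92 between the 2 log2 ratios, close to the median of the cell cycle list, and their separate parts were not tested.

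Targets of p53, the DNA damage and stress regulator, had a positive difference for 17 of 20 members and a median of 0.58. Ccng1, a cyclin-like target, was at 200 and 210 CPM in wild type at 20%, 215 and 250 at 1%, 306 and 308 in the labelled KO libraries at 20%, and 757 and 761 at 1% (1.12 ± 0.09, adjusted p = 2.4e-08). Perp, a membrane protein linked to p53-dependent cell death, was at 12.9 and 14.5 CPM in wild type at 20%, 5.76 and 6.88 at 1%, 21.8 and 26.2 in the labelled KO libraries at 20%, and 36.6 and 36.6 at 1% (1.60 ± 0.17, adjusted p = 4.3e-07). For both genes the labelled KO libraries were already above wild type at 20%, and the distance grew at 1%. The cell cycle inhibitor Cdkn1a differed by 0.68 ± 0.14, Plk2 by 0.76 and Sesn2 by 0.66. Sesn1 (-0.43 ± 0.10), a stress-induced regulator of growth signalling, was the negative member and was not called in edgeR, in DESeq2 or with median-of-ratios scaling. The feeder marker sum was also highest in the labelled KO libraries at 1%, and its part in these values was not tested.

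Positive calls made up 68.8% of immediate early genes and 43.8% of stress and unfolded protein response genes, against 19% of all genes. Negative calls made up 6.25% of each list, against 39.0% of all genes. Immediate early genes, which respond within minutes to growth signals, were positive for 11 of 16 and negative for 1, with a median of 0.47, and leaving out labelled KO 20% replicate 1 reduced the positive calls to 7. The phosphatase Dusp1 (0.66 ± 0.08), the nuclear receptor Nr4a1 (0.77 ± 0.11) and the AP-1 subunit Fosl1 (0.69 ± 0.11) were among them, and the transcription factor Egr3 (-0.67 ± 0.13) was the negative one. Stress and unfolded protein response genes were positive for 7 of 16, negative for 1, and had a median of 0.16; Chac1 (1.23 ± 0.23), which degrades glutathione, and the transcription factor Atf5 (0.99 ± 0.16) led them. With median-of-ratios scaling 13 of these 16 were positive and none negative.

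Antioxidant genes had 8 of 17 differences positive and 6 negative (47.1% and 35.3%, against 19% and 39.0% of all genes). The negative share was thus near that of all genes. In edgeR, in DESeq2 and with median-of-ratios scaling 9 were positive and 4 negative. The haem oxygenase Hmox1 was at 212 and 211 CPM in wild type at 20%, 248 and 287 at 1%, 214 and 220 in the labelled KO libraries at 20%, and 644 and 610 at 1%. The 4 libraries at 20% lay close together and the labelled KO libraries at 1% stood apart (1.19 ± 0.09, adjusted p = 7.6e-09). Glutathione reductase, Gsr, was at 273 and 270 CPM in wild type at 20%, 301 and 290 at 1%, 241 and 249 in the labelled KO libraries at 20%, and 141 and 158 at 1% (-0.84 ± 0.07, adjusted p = 2.6e-08). The glutathione synthesis enzyme Gclc (-0.68 ± 0.07) and superoxide dismutase Sod1 (-0.63 ± 0.06) were negative as well. Leaving out labelled KO 1% replicate 1 reduced the positive calls to 5.

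Interferon response genes were positive for 9 of 20 and negative for 4 (45.0% and 20.0%, against 19% and 39.0% of all genes), with a median of 0.40. The median was 0.66 with median-of-ratios scaling and 0.20, with 6 positive calls, without labelled KO 1% replicate 2. Ifit2, an antiviral protein, was at 5.64 and 5.83 CPM in wild type at 20%, 4.37 and 3.90 at 1%, 7.12 and 8.22 in the labelled KO libraries at 20%, and 17.4 and 15.9 at 1% (1.42 ± 0.18, adjusted p = 3.3e-06). Rsad2, another antiviral protein, was at 42.8 and 46.6 CPM in wild type at 20%, 43.3 and 34.6 at 1%, 48.6 and 43.7 in the labelled KO libraries at 20%, and 15.8 and 18.9 at 1% (-1.16 ± 0.14, adjusted p = 1.9e-06). Single members thus differed in both directions, but the negative share was below that of all genes, and DESeq2 left 1 of the 4 negative calls. Acute phase and cytokine genes were positive for 7 of 12 and negative for 1, and leaving out wild type 1% replicate 1 or labelled KO 20% replicate 1 reduced the positive calls to 4. With all libraries the acute phase shares were 58.3% positive and 8.33% negative, against 19% and 39.0% of all genes. Complement C3 (1.16 ± 0.10) and haptoglobin Hp (0.90 ± 0.21) led the positive members. The chemoattractant Rarres2 (-0.54 ± 0.14) was the negative member, with no call under median-of-ratios scaling (-0.25).

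Cholesterol synthesis genes had 11 negative and 4 positive differences among 24 (45.8% and 16.7%, close to the 39.0% and 19% over all genes), with a median of -0.26. With median-of-ratios scaling 5 were negative and 8 positive and the median was 0.01, and without wild type 1% replicate 1 or labelled KO 20% replicate 1 there were 2 positive calls. Dhcr7, which makes the last step to cholesterol, was at 142 and 142 CPM in wild type at 20%, 187 and 166 at 1%, 120 and 116 in the labelled KO libraries at 20%, and 79.8 and 85.3 at 1% (-0.81 ± 0.08, adjusted p = 8.1e-08). Wild type was higher at 1% and the labelled KO libraries were lower, with no overlap. The regulator Srebf2 differed by -0.53.

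Values of the respiratory chain lists depended on the scaling. Of the 13 protein genes of the mitochondrial genome, 7 were tested, and 6 differences were negative, with a median of -0.38. The median was -0.11 with median-of-ratios scaling and -0.23 without wild type 1% replicate 1. The cytochrome oxidase subunit mt-Co1 was at 5280 and 5498 CPM in wild type at 20%, 7836 and 5951 at 1%, 5660 and 5202 in the labelled KO libraries at 20%, and 4527 and 4786 at 1% (-0.56 ± 0.14, adjusted p = 0.0016). The 2 wild type libraries at 1% lay far apart, and with median-of-ratios scaling the difference was -0.28 and not called, as was that of mt-Cytb (-0.47, then -0.20). With that scaling mt-Nd6 (-0.81 before it) was the 1 member called, and 3 were called without wild type 1% replicate 1, labelled KO 20% replicate 1 or labelled KO 1% replicate 1. Of 20 nuclear complex I subunits 4 were negative (20.0%, against 39.0% of all genes) and none positive, with a median of -0.10. With median-of-ratios scaling the median was 0.17, with 7 positive and 1 negative. Ndufs8 (-0.62 ± 0.08) had the largest difference.

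Markers of other cell types were low. Leukocyte markers summed to 18.8 to 54.6 CPM over the 8 libraries, endothelial markers to 14.4 to 30.3 and testis somatic markers to 50.3 to 68.0. Of 12 leukocyte markers 8 were tested and 3 were positive, Cd68, Csf1r and Cd14 (1 without labelled KO 20% replicate 1 or labelled KO 1% replicate 2). The lysosomal protein Cd68 was at 9.50 and 9.42 CPM in wild type at 20%, 5.32 and 5.92 at 1%, 7.62 and 9.27 in the labelled KO libraries at 20%, and 11.5 and 13.1 at 1% (1.15 ± 0.16). Ptprc, the defining surface marker of leukocytes, did not exceed 1.41 CPM in any of these libraries. Of 8 endothelial markers 5 were tested, with Pecam1 negative (-1.12 ± 0.17) and Tek positive, a call lost without labelled KO 20% replicate 1 or labelled KO 1% replicate 2, and the list median of -0.20 turned to 0.01 with median-of-ratios scaling. Of 14 testis somatic markers 9 were tested, with Sox9 (0.67), Inha (0.99) and Myh11 (0.79) positive and Rhox5 (-0.91) negative; this median of -0.14 also changed sign, to 0.07. Of 12 replication-dependent histone genes 4 were tested and 2, Hist1h2ac (0.62) and Hist1h2bc (0.82), were positive, with Hist1h2ac losing its call in most alternatives.

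The largest positive differences among genes with a mean of at least 5 CPM in a group belonged to Acta1, skeletal muscle actin (2.50 ± 0.33), Sprr1a, a cornified envelope protein (2.34 ± 0.30), and Bst1, an enzyme that uses NAD (2.29 ± 0.19). Bst1 was at 3.31 and 3.39 CPM in wild type at 20%, 13.3 and 15.7 at 1%, 5.69 and 5.64 in the labelled KO libraries at 20%, and 117 and 113 at 1%. Acta1 was at 0.245 and 1.00 CPM in wild type at 20%, 0.292 and 1.26 at 1%, 3.27 and 3.58 in the labelled KO libraries at 20%, and 27.1 and 25.1 at 1%. Both were thus several times higher in the labelled KO libraries at 1% than in any other library. Gm7361, Ppef1, Dsp, Oas2, Sncg, Apol6, Upk3b, Gpnmb and Erv3 completed the 12 largest, with differences between 1.73 and 2.01. Dsp, the desmosome protein desmoplakin, was at 9.56 and 8.65 CPM in wild type at 20%, 3.64 and 5.31 at 1%, 13.4 and 13.8 in the labelled KO libraries at 20%, and 31.2 and 28.1 at 1%.

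The most negative differences were those of Rsph4a, a radial spoke protein of cilia and sperm tails (-1.66 ± 0.27), the channel-like gene Tmc3 (-1.40 ± 0.12) and the meiotic gene Mei1 (-1.38 ± 0.10). Rsph4a was at 2.94 and 2.96 CPM in wild type at 20%, 9.98 and 8.15 at 1%, 4.27 and 3.27 in the labelled KO libraries at 20%, and 1.99 and 3.82 at 1%. It rose in wild type by 1.34, and the labelled KO libraries overlapped between oxygen levels. Mei1 was at 24.7 and 24.4 CPM in wild type at 20%, 29.5 and 29.3 at 1%, 19.4 and 21.1 in the labelled KO libraries at 20%, and 8.85 and 8.57 at 1%. Fam90a1b, Dscc1, Slc9b1, 4933403O08Rik, Paqr9, Itpka, E2f2, Itga2 and Wbp2nl completed the 12, between -1.38 and -1.28. E2f2, an activator of S phase genes, and Dscc1, which loads the replication clamp, are both replication genes, and Itga2, a collagen receptor, rose in wild type by 1.34 while its labelled KO response was 0.06.

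Opposite responses, called in both genotypes and in the difference, were found for 332 genes that rose in wild type and fell in the labelled KO libraries (2.24%) and 187 that did the reverse (1.26%). These sets were counted after the data had been seen, and they depend on the scaling: of 25 such genes named here or shown in the plot of opposite responses, 16 remained opposite in edgeR, 16 in DESeq2 and 18 with median-of-ratios scaling, while the difference itself was called for 25, 24 and 23. By list, the set that rose in wild type held 9 of 20 meiotic genes, 4 of 24 cholesterol genes, 3 of 16 germ cell identity genes and 3 of 17 antioxidant genes. The reverse set held 2 of 24 feeder markers and 2 of 20 p53 targets. None of the 19 glycolysis enzymes was in either set. The 2 counts fell to 179 and 97 without wild type 1% replicate 1, 202 and 115 without wild type 20% replicate 1, and 191 and 109 without wild type 20% replicate 2.

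**Figure D5:**
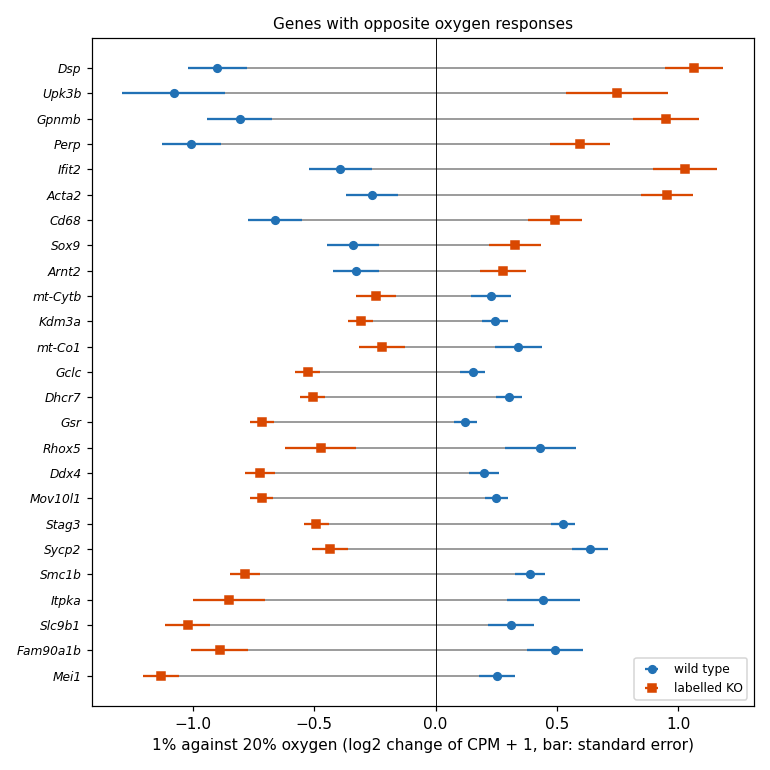
Oxygen responses (log2 change of CPM + 1 from 20% to 1%, with standard errors pooled over all 16 libraries) of 25 named genes called in opposite directions in wild type (circles) and in the libraries labelled KO (squares). Dsp, Upk3b, Gpnmb and Perp have the widest gaps on one side, 1.60 to 1.97, and Mei1 and Fam90a1b on the other, -1.38 each.

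The difference was then read over genes defined in libraries outside its contrast, those of wild type DBA/2 GS cells at 20% and 1% oxygen (2 each). Those libraries did enter the filter on low values and the fit that gave the spread behind the calls. Of 356 genes that rose at least 2-fold at 1% oxygen in DBA/2 cells (2.40% of those tested), 120 (33.7%) had a positive difference and 80 (22.5%) a negative one, with a median of 0.16. The median was 0.07 without wild type 1% replicate 1, with 100 positive and 76 negative, and 0.38 with median-of-ratios scaling. Negative calls numbered 48 in edgeR, 36 in DESeq2 and 49 with median-of-ratios scaling. Of 349 that fell at least 2-fold (2.35%), 96 (27.5%) were positive and 84 (24.1%) negative, with a median of 0.02. Among all genes the shares were 19% and 39.0%. Both sets, risen and fallen, thus had a larger positive and a smaller negative share than all genes. Members of the first set therefore went both ways: Slc16a3, Egln3 and Stc2, which rose in DBA/2 cells by 4.47, 1.85 and 3.11, had positive differences, while Slc2a3 and Ankrd37, which rose there by 1.50 and 3.20, had negative ones.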

How the data were processed

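Total RNA of GS cell cultures was sequenced as stranded mRNA libraries, per the labels' protocols. The deposited values are CPM, made by the authors, of 21924 protein-coding genes in 16 libraries. Per the submitters' processing notes the tools were cutadapt 1.16, STAR 2.6.0c, HTSeq 0.11.2 and DESeq2 1.22.2, with build mm10; their roles and settings are not given there. Whole reads could be recovered from the deposited CPM for 100% of values within a tolerance of 0.01 reads. Depth is given with the results.

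All 16 libraries were fitted in limma 3.58.1 (R 4.3.3) on log2(CPM + 1), 1 mean per group, with a variance trend and no replicate block; genes that reached 1 CPM in fewer than 2 libraries were left out. The contrast was (labelled KO at 1% minus 20%) minus (wild type at 1% minus 20%), adjusted over all genes at 0.05. A difference of log2(CPM + 1) understates changes of low genes. The code was checked on simulated data. Alternatives were edgeR 4.0.16 and DESeq2 1.42.0 on the recovered reads, median-of-ratios scaling, a pseudocount of 0.25, other filters, the line's libraries alone, a replicate block and leaving out each library.

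The comparison, its members and the gene lists were chosen with earlier results of these data known. Named genes were a set of 24 hypoxia, germ cell and feeder genes, the 12 largest differences in each direction with a mean of at least 5 CPM in a group, up to 4 members of each list with the smallest adjusted p, and members that state a count of 5 or fewer. Members named without a call outside this rule were picked after their values were seen. Some genes that this rule names are not reported here. Gene coordinates come from GENCODE M21 (GRCm38) and promoter stretches from RefSeq.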

Additional observations from a re-analysis of the deposited data

Results flagged for a closer look

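The oxygen response differed between the genotype labels by a test of the difference itself for 2819 genes in the positive and 5784 in the negative direction. Among named genes with a mean of at least 5 CPM in a group, 25 were called in opposite directions in the 2 genotypes. Positive differences, with a fall in wild type and a rise in the labelled KO libraries, were those of Dsp (1.97), Upk3b (1.83), Gpnmb (1.76), Perp (1.60), Ifit2 (1.42), Acta2 (1.22), Cd68 (1.15), Sox9 (0.67) and Arnt2 (0.60). Negative differences among meiotic and germ cell genes were those of Mei1 (-1.38), Smc1b (-1.17), Sycp2 (-1.07), Stag3 (-1.02), Mov10l1 (-0.97) and Ddx4 (-0.92). The remaining negative differences were those of Fam90a1b (-1.38), Slc9b1 (-1.33), Itpka (-1.30), Rhox5 (-0.91), Gsr (-0.84), Dhcr7 (-0.81), Gclc (-0.68), mt-Co1 (-0.56), Kdm3a (-0.55) and mt-Cytb (-0.47). Groups of 2 libraries were not examined for single outlying samples.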

How the results depend on the processing

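These counts moved by over 1.5 times; edgeR and DESeq2 change the model as well as the scaling. Positive differences numbered 4240 in edgeR and 4966 with median-of-ratios scaling, and negative ones 3448 in edgeR, 2514 in DESeq2 and 3081 with median-of-ratios scaling. Wild type falls numbered 3060 in DESeq2. For the labelled KO libraries falls numbered 4726 in DESeq2 and 5234 with median-of-ratios scaling, where rises numbered 5947. Of DBA/2-risen genes 48, 36 and 49 were negative in edgeR, DESeq2 and median-of-ratios scaling, and of DBA/2-fallen genes 53, 34 and 36. Genes opposite with a wild type rise numbered 144 in DESeq2, and those with a wild type fall 342 with median-of-ratios scaling; these 2 counts were chosen after seeing the data. Leaving out 1 library gave 2304 to 2958 positive and 5170 to 5795 negative differences, 179 to 446 opposite genes with a wild type rise (lowest without wild type 1% replicate 1) and 97 to 266 with a wild type fall (lowest without the same library). Ndufa9, at -0.23, reversed to 0.0404 in DESeq2 and 0.0398 with median-of-ratios scaling. Over named genes and alternatives, 2174 values were called in the same direction or uncalled in both fits. A further 60 lost the call, 14 gained it and 2 reversed with a call in at least 1 fit. Values uncalled in both fits could change sign and still enter the first count. With a replicate block 2869 differences were positive and 5873 negative. Deviations of same-numbered libraries correlated at -0.06 to 0.27 between groups, which cannot settle whether they share more than a number. Limits are 2 libraries a group, sums of fibroblast and germ cell RNA that differ between groups, and low genes near 3 reads.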

Other observations

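Libraries of the Top1mt line at 1% oxygen (wild type and KO for a mitochondrial topoisomerase, 2 each) are outside the contrast of the interaction. They did enter the filter on low values and the fit that gave the spread behind its calls. Their strain background is C57BL/6, against mixed 129 x C57BL/6 for the Hif1a line, and their column names carry another day mark than those of the Hif1a line at 1%. Across 14841 genes, which are not independent replicates, the interaction correlated with the Top1mt KO minus wild type difference at Pearson r = 0.62 and Spearman rho = 0.63. Both values are descriptions of gene profiles within 1 series, and what the gene profiles share was not tested. The Top1mt difference had a median of 0.92 for feeder fibroblast markers, -0.38 for germ cell identity genes, -0.48 for cell cycle genes and 0.66 for hypoxia targets outside glycolysis, where the interaction had 0.48, -0.89, -0.88 and 0.42. For single genes the Top1mt difference was 0.96 for Ldha, 0.90 for Bnip3, 0.75 for Slc16a3 and 0.20 for Hif1a, against 0.89, 0.98, 1.24 and 1.01 for the interaction. Sox3 had the other sign, at 0.28 in the Top1mt line against -1.15 in the interaction. Kit was negative in both but less so in the Top1mt line, at -0.28 against -1.19. Kit and Sox3 were chosen after their values were seen.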
